A study of Mus musculus with 2 samples.

Results

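The genes described here are 4 chemokines that draw neutrophils, Cxcl1, Cxcl2, Cxcl3 and Cxcl5, and Cxcr2, the receptor that reads them. They are 5 of the 32285 genes in the deposited matrices, chosen by symbol alone, and they were read in 8 classes of cells that were named from other genes. The cells came from scaffolds that had filled a circular skull defect of 3.5 mm in female Balb/c mice aged 6 weeks. The Gel100 and the Gel50_CS50 group both received a cell-free scaffold of that name. Scaffolds were taken out at week 1, the cells of 5 mice per group were pooled, and viable cells were sorted and run on the 10x 3′ platform. Each scaffold is therefore 1 library from 1 pool, with no replicate and no group without a scaffold. The make-up that each scaffold name refers to was not among the labels used here.

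Chemokines are small secreted proteins that guide cells along a gradient. Those with a glutamate-leucine-arginine motif ahead of their first cysteines bind CXCR2, a G protein-coupled receptor that neutrophils carry when they leave the bone marrow and enter injured tissue. Cxcl1 (KC), Cxcl2 (MIP-2) and Cxcl3 are best known as early products of macrophages, neutrophils and stromal cells that have sensed damage or microbes, and NF-kB is a known inducer of their genes. Cxcl5 (LIX) is best known from epithelial and mesenchymal cells.

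The 4 ligand genes lie within 146579 bases of chromosome 5, and Cxcr2 lies on chromosome 1. In the GENCODE vM21 annotation of mm10, Cxcl5 spans chr5:90759360-90761624, Cxcl3 chr5:90786103-90789600, Cxcl1 chr5:90891241-90893115 and Cxcl2 chr5:90903871-90905938, all on the plus strand with up to 4 exons. Cxcr2 spans chr1:74153989-74161246, also on the plus strand. RefSeq promoters of the GRCm38.p6 build, running from 250 bases before to 50 bases after the transcription start, were matched for 4 of the 5 genes. No entry was found for Cxcl5, so its promoter was not examined. The stretch from 100 bases before the start to 20 bases from it is shown for Cxcl1, Cxcl2 and Cxcl3. These were the ligands with a matched promoter, and all were higher in neutrophils and macrophages of the Gel50_CS50 library. The capitals mark GGAATTTCC, a match to the core of the NF-kB consensus, and ATAAAAG, which fits the common promoter element known as the TATA box. The stretches cover chr5:90891145-90891264, chr5:90903799-90903918 and chr5:90786001-90786120 on the plus strand.
Cxcl1: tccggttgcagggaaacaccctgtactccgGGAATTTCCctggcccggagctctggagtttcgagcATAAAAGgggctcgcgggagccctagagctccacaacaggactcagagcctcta
Cxcl2: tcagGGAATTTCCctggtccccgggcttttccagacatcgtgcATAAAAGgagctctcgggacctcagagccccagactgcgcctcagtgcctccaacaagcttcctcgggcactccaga
Cxcl3: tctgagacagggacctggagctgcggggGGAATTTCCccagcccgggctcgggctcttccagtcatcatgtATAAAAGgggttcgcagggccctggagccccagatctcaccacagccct

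Both motifs were searched on both strands and do not overlap in these promoters. The NF-kB match began 70 bases before the start in Cxcl1, 96 in Cxcl2 and 72 in Cxcl3, and the TATA box match began 34, 57 and 29 bases before it. These distances are from the RefSeq start. For Cxcl2 that start lies after the GENCODE gene start of chr5:90903871, so its larger distances depend on the start used. Of 32851 promoters of this length, 104 (0.317%) held the NF-kB match and 1779 (5.42%) held the TATA box match. Both were held by 9 promoters (0.0274%), and 3 of these were Cxcl1, Cxcl2 and Cxcl3. These letters were not in the window of Cxcr2. The 3 genes are related and lie close together, so their matches are not independent. A match of letters is a description and not a measured site, and a link to the levels of these genes was not tested.

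The libraries held 7570 Gel100 and 7206 Gel50_CS50 cells after filtering, with medians of 12716 and 16506.5 transcript counts (unique molecular identifiers, UMIs) per cell. Low-depth cells, under 1000 UMIs, were 11.2% in Gel100 and 1.42% in Gel50_CS50. Neutrophils were 614 (8.11%) and 1402 (19.5%) of the cells, macrophages and monocytes 3811 (50.3%) and 3694 (51.3%), and stromal cells 216 (2.85%) and 579 (8.03%). The other classes were T or NK cells, conventional and plasmacytoid dendritic cells, endothelial cells (64 and 57 cells) and pericytes or smooth muscle cells (28 and 51 cells). Clusters without a name held 1135 Gel100 and 357 Gel50_CS50 cells, and 1018 and 127 of these were in clusters of low depth. The 2 libraries shared 24 barcode sequences. The defining genes given here were highest in their own class, but not all were confined to it. S100a9 stood at 37926 and 32579 counts per 1000000 UMIs (CPM) in neutrophils and at 22.9 and 41.4 CPM in macrophages. Col3a1 stood at 14594 and 15021 CPM in stromal cells. The macrophage gene C1qa was 1079 and 948 CPM in macrophages and 56.7 and 38.1 CPM in neutrophils. Adgre1, also a macrophage gene, was 1013 and 830.1 CPM in macrophages but 102.1 and 474 CPM in neutrophils. Cd3e, a T cell gene, was 185 and 253 CPM in T or NK cells and 46.8 and 57.3 CPM in stromal cells.

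Levels below are CPM of the UMIs summed over the cells of a class in a library. They count 3′ ends and do not grow with gene length, so levels of different genes are compared on this scale. Intervals are 95% and cover counting error only. A gene was called measured in a class where its 2 levels averaged 20 CPM or more, and higher or lower where the ratio passed 1.5-fold. No test between the scaffolds is possible with 1 library each. From a whole-library level alone, more cells of a type and more RNA per cell cannot be told apart. Class levels are shares of the UMIs of a class, so they follow the mix of clusters in it and are not amounts per cell: stromal Cxcl1, for example, was 324 and 300.4 CPM but 15.2 and 17.8 UMIs per cell.

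Each gene had its own set of source cells. Cxcr2 was almost confined to neutrophils and Cxcl5 to stromal cells, whereas Cxcl2 was shared by neutrophils and macrophages and Cxcl1 was spread over neutrophils, macrophages, stromal cells and pericytes. Of the 40 pairs of gene and class, 18 were measured. Between the libraries, 11 of these pairs were higher in Gel50_CS50, 2 were lower and 5 were within 1.5-fold. Over all measured genes, 1.45% to 10.4% were higher and 1.13% to 14.4% lower, depending on the class. The 2 lower pairs were Cxcl1 in pericytes and in endothelial cells, and both rest on few cells. Of the higher pairs, endothelial Cxcl2 had 252 of its 360 Gel50_CS50 UMIs in 1 cell. Neutrophil Cxcl2 was 1.51-fold higher and passed 1.5-fold in 7 of 14 other settings.

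**Figure D1:**
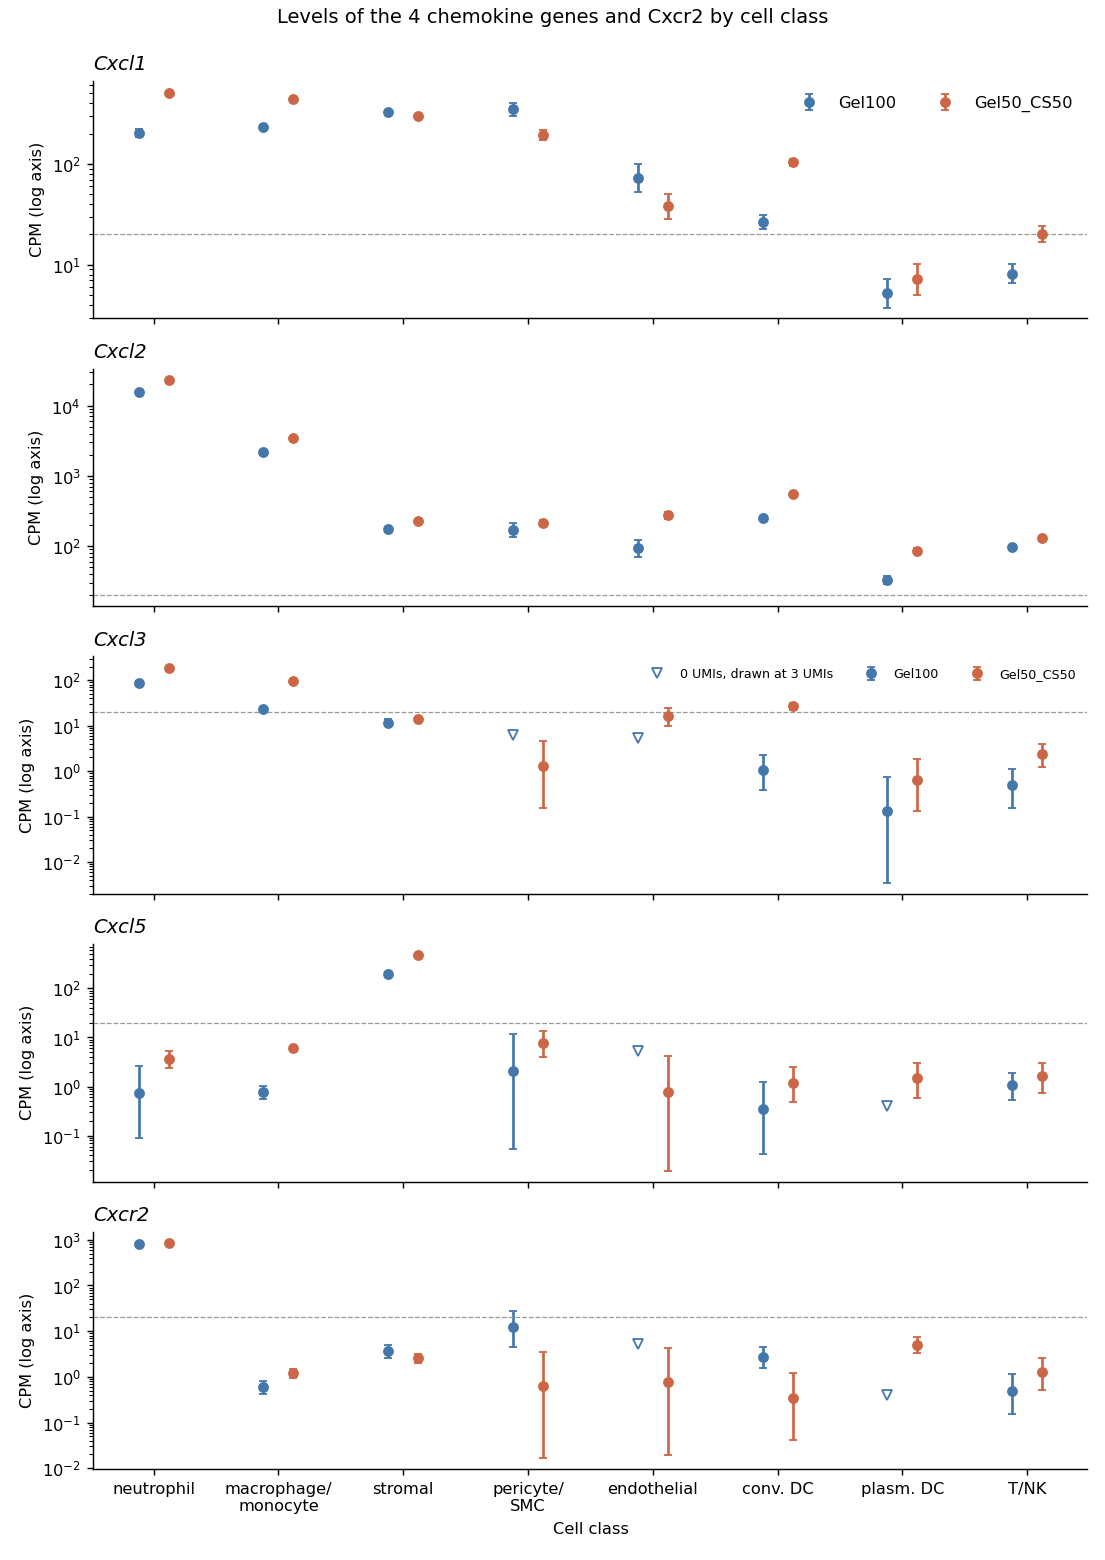
Level of each gene (CPM, log axis) in the 8 cell classes, with 1 point per library (blue, Gel100; orange, Gel50_CS50) and 95% counting intervals; the dashed line is 20 CPM and open triangles mark 0 UMIs, drawn at the level of 3 UMIs. Cxcr2 passed the line in neutrophils alone and Cxcl5 in stromal cells alone, while Cxcl2 passed it in all 8 classes.

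Cxcr2, the receptor, was measured in neutrophils alone among the 8 classes. Its level there was 803 CPM in Gel100 (769.8 to 838) and 843 CPM in Gel50_CS50 (821 to 865). The log2 ratio was 0.07 (-0.002 to 0.14), so the 2 libraries were not told apart by counting error. Neutrophils held 94.9% of the Cxcr2 UMIs in Gel100 and 95.2% in Gel50_CS50. The next class stood 64.5-fold lower in Gel100 (pericytes, 6 UMIs, all in 1 cell) and 165-fold lower in Gel50_CS50 (plasmacytoid dendritic cells, 24 UMIs). In macrophages the level was 0.60 and 1.19 CPM and in stromal cells 3.65 and 2.53 CPM, all under the limit for a measured gene. Over the whole library Cxcr2 was 1.85-fold higher in Gel50_CS50 (21.9 against 40.5 CPM). The share of all UMIs that lay in neutrophils was 2.59% and 4.58% in the same libraries.

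The share of neutrophils with a Cxcr2 UMI was compared after each cell was thinned to 3000 UMIs, which left out 90 Gel100 and 115 Gel50_CS50 neutrophils. It was 70.4% in Gel100 (66.3% to 74.3%) and 67.5% in Gel50_CS50 (64.9% to 70.1%), and 72.3% in both before thinning. In T or NK cells, which should lack the receptor and serve as a reference, the thinned share was 0% (0 of 871 cells, which allows up to 0.344% by the limit of 3 counts) and 0.21%. Median depth before thinning was 4066.5 and 4340.5 UMIs in neutrophils and 9156.5 and 9911 UMIs in T or NK cells.

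Neutrophils fell into 4 clusters, and the receptor differed more between these than between the scaffolds. The highest Cxcr2 level was in cluster 11, led by S100a9 and Retnlg, with 1248 CPM in Gel100 and 1586 CPM in Gel50_CS50. Cluster 13, led by Cstdc4 and Mrgpra2b, had 848 and 1024 CPM, and cluster 29, which carries the granule genes Ngp, Camp and Ltf of early neutrophils, had 541 and 721 CPM. Cluster 4, led by Cstdc4 and Il1f9, was lowest at 301 and 384 CPM. Within each of the 4 clusters Cxcr2 was higher in Gel50_CS50, by 0.27 to 0.41 on the log2 scale, although the class as a whole showed 0.07. The clusters took different shares of the class: cluster 4 held 19.2% of neutrophils in Gel100 and 51.2% in Gel50_CS50, and cluster 13 held 49.0% and 13.8%. With both libraries weighted to the same mix of clusters, Cxcr2 stood at 759 and 949 CPM, a log2 ratio of 0.32. The direction is not settled, as it was -0.41 when each library was clustered alone.

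Cxcl2 was the most abundant of the ligands and was highest in the cells that carry its receptor. In neutrophils it stood at 15453 CPM in Gel100 (15305 to 15602) and 23336 CPM in Gel50_CS50 (23219 to 23453). These levels made it the gene with rank 4 and rank 3 of all genes in that class. The ratio was 1.51-fold (log2 0.59, 0.58 to 0.61), just past the 1.5-fold limit. Macrophages had 2213 and 3441 CPM, a ratio of 1.55-fold (log2 0.64, 0.63 to 0.65). Neutrophils thus stood 6.98-fold above macrophages in Gel100 and 6.78-fold above them in Gel50_CS50.

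Most macrophages and nearly all neutrophils carried a Cxcl2 UMI. At 3000 UMIs per cell the share was 93.1% and 97.7% in neutrophils and 80.2% and 82.5% in macrophages, in Gel100 and Gel50_CS50. Before thinning these shares were 94.8% and 98.5%, and 89.5% and 93.9%. T or NK cells, used as a reference here too, gave 13.4% and 24.3% (34.5% and 55.1% before thinning). That reference was not uniform: T or NK cluster 23, led by Ctla4 and Il2ra, had 354 and 330.1 CPM of Cxcl2, against 58.7 and 97.6 CPM in cluster 16 and 56.6 and 145 CPM in cluster 21. Whether its UMIs were free RNA was not tested. In Gel100 the stromal share (23.98%, 18.2% to 30.6%) lay above that of T or NK cells (11.2% to 15.9%), and those of pericytes (22.2%) and endothelial cells (18.2%) were higher with intervals that overlapped it. In Gel50_CS50 the shares were 22.6% in stromal cells, 18.0% in endothelial cells, 19.6% in pericytes and 16.1% in plasmacytoid dendritic cells. These were lower than that of T or NK cells, but each interval overlapped that of T or NK cells (20.5% to 28.4%). The summed stromal level stood above that of T or NK cells in both libraries (174 against 96.7 CPM and 228 against 132 CPM), so no order is read from the Gel50_CS50 share. Within neutrophils the UMIs were spread widely, as the tenth of cells with the most held 24.9% and 23.4% of the thinned UMIs.

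Because macrophages are so many, they held 74.0% of the Cxcl2 UMIs in Gel100 and 60.4% in Gel50_CS50. The part held by neutrophils was 22.02% and 35.3%. The bars of UMI source show that Cxcl3 kept nearly the same sources in both libraries, with 79.7% and 79.2% in macrophages and 12.6% and 13.1% in neutrophils. These shares follow cell numbers as well as levels, and the macrophage shares of Cxcl1, Cxcl2 and Cxcl3 fell to 39.4% to 47.4% when each cell was named by its own markers, which left 23.0% of cells without a class.

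**Figure D2:**
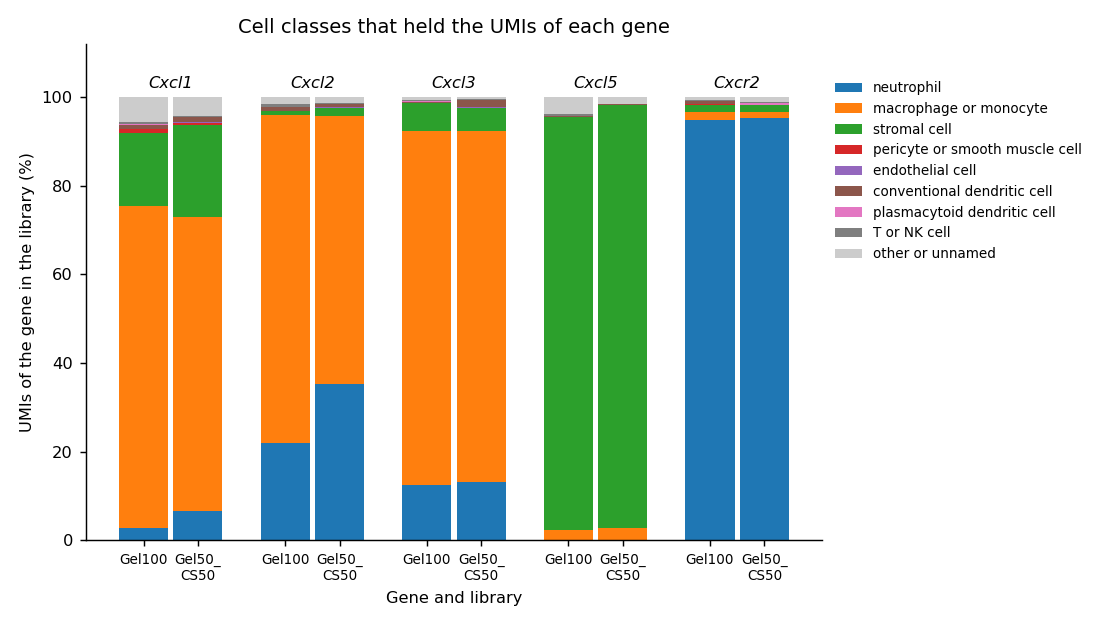
Percent of each gene's UMIs that lay in each cell class, with 1 bar per gene and library that adds up to all its UMIs; grey is cells of other or no class. Neutrophils held 94.9% and 95.2% of Cxcr2, stromal cells 93.1% and 95.3% of Cxcl5, and macrophages most of Cxcl1, Cxcl2 and Cxcl3.

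Among neutrophil clusters, Cxcl2 ran against Cxcr2 in 3 of them. Cluster 4, lowest in the receptor, was highest in Cxcl2 with 23694 CPM in Gel100 and 30053 CPM in Gel50_CS50. Cluster 13 had 17411 and 19476 CPM and cluster 11 had 14382 and 15832 CPM. The early cluster 29 was low in both libraries, at 649.6 and 1733 CPM. Within these clusters the log2 ratio was 0.34, 0.16, 0.14 and 1.42, so 1 of the 4 passed 1.5-fold. Weighted to the same clusters, neutrophil Cxcl2 stood at 18027 and 21384 CPM, a log2 ratio of 0.25. The class ratio passed 1.5-fold in 7 of 14 other settings.

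**Figure D3:**
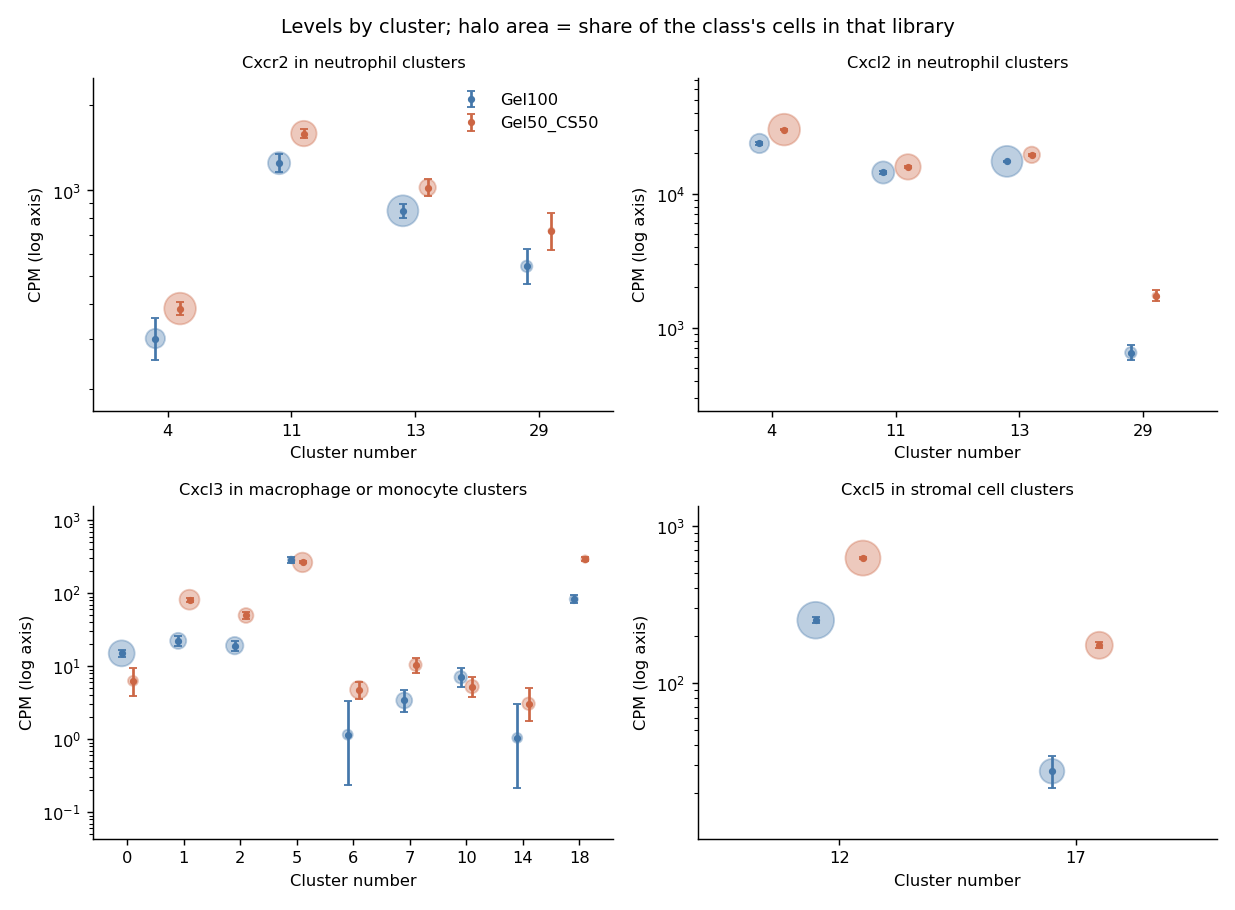
Levels (CPM, log axis) of Cxcr2 and Cxcl2 in the neutrophil clusters, Cxcl3 in the macrophage clusters and Cxcl5 in the stromal clusters, with 95% counting intervals and a halo whose area is the share of the class in that library. Cluster 4 was lowest in Cxcr2 and highest in Cxcl2, and cluster 5 had nearly the same Cxcl3 level in both libraries but a far larger share of Gel50_CS50 macrophages.

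In macrophages Cxcl2 was highest in cluster 1, led by F10 and F13a1, with 5231 and 6918 CPM. It was lowest in cluster 10, led by Gpnmb and Atp6v0d2, with 1034 and 1259 CPM. Of the 9 macrophage clusters, 8 had more Cxcl2 in Gel50_CS50 and 4 passed 1.5-fold. The exception was cluster 14, which carries MHC class II genes such as H2-Aa and Ciita, with 2085 and 1817 CPM. Weighted to the same clusters, the macrophage log2 ratio of Cxcl2 was 0.43, under the 1.5-fold limit.

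The highest class for Cxcl1 stood 1.07-fold above the next in Gel100 and 1.15-fold in Gel50_CS50. The order of stromal cells, macrophages and neutrophils turned over between the libraries. In Gel100 the levels ran from pericytes (348 CPM, from 28 cells) and stromal cells (324 CPM) to macrophages (230.1 CPM) and neutrophils (203 CPM). Pericytes and stromal cells did not differ there beyond counting error. In Gel50_CS50 the order was neutrophils (500.4 CPM), macrophages (435 CPM), stromal cells (300.4 CPM) and pericytes (195 CPM), each apart from the next beyond counting error. The top place of pericytes in Gel100 rested on 1 cell with 89 of their 168 UMIs. Without the highest cell of each library and class, pericytes stood at 189 and 168 CPM and neutrophils at 193 and 494 CPM. The order of stromal cells, macrophages and neutrophils stayed as given. Neutrophil Cxcl1 was 2.47-fold higher in Gel50_CS50 (log2 1.30, 1.17 to 1.44) and macrophage Cxcl1 was 1.89-fold higher (log2 0.92, 0.89 to 0.95). Stromal Cxcl1 was 0.926-fold (log2 -0.11, -0.17 to -0.05), and this small difference changed sign when cells were thinned (0.103) or weighted to the same clusters (0.0258).

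At 3000 UMIs per cell, Cxcl1 was found in 19.3% and 31.8% of neutrophils, in 28.9% and 39.7% of macrophages, and in 29.6% and 29.3% of stromal cells. Unthinned, these shares were 22.1% and 36.7%, 46.2% and 61.4%, and 54.2% and 64.9%. T or NK cells had 2.41% and 6.75% (7.49% and 19.8% unthinned), well below those 3 classes. Median depth was 16253 and 19026.5 UMIs in macrophages and 49378 and 56136 UMIs in stromal cells. The stromal share was level between the libraries while both myeloid shares were higher in Gel50_CS50.

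All 4 neutrophil clusters had more Cxcl1 in Gel50_CS50, and cluster 4 was the highest there at 682 CPM against 263 CPM in Gel100. Of the 9 macrophage clusters, 8 had more Cxcl1 in Gel50_CS50, and 4 passed 1.5-fold. The highest Gel100 level was in cluster 2, led by Cd5l and Mrc1, with 460 CPM against 661 CPM. Cluster 14 was again the exception, with 115 and 103 CPM. With the same mix of clusters the macrophage log2 ratio of Cxcl1 was 0.61, still past 1.5-fold.

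Within the named stromal cells Cxcl1 was concentrated in cluster 12, led by Ebf1, Col5a2 and Fstl1, with 421 and 415 CPM. Cluster 17, led by Itgbl1, Col11a1 and Mgp, had 48.3 and 75.4 CPM. An unnamed cluster of 25 and 78 cells led by Opcml, Igfbp5, Clec3b, Dpt and Pi16 had 685 and 466 CPM, in Gel100 the highest Cxcl1 of all clusters and above the 460 CPM of macrophage cluster 2. Its highest marker score was the stromal one, 8.47, against 8.09 in cluster 12 and 7.63 in cluster 17. It was left without a name because its only marker among the leading genes, Ebf1, is on the B cell list. The stromal levels given here therefore leave it out.

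In conventional dendritic cells Cxcl1 was 26.8 and 104 CPM (3.87-fold) and Cxcl2 was 251 and 553 CPM (2.20-fold). Shares of these cells with a UMI at 3000 UMIs per cell were 5.24% and 11.3% for Cxcl1 and 20.6% and 31.8% for Cxcl2. In Gel100 the Cxcl2 share lay above that of T or NK cells (13.4%) with intervals apart, while the Cxcl1 intervals overlapped. In Gel50_CS50 the intervals of both shares overlapped those of T or NK cells. Cxcl3 was at 1.04 and 26.5 CPM there, and 64 of the 154 Gel50_CS50 UMIs (41.6%) came from 1 cell.

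The differences between the libraries in pericyte Cxcl1 and endothelial Cxcl2 each leaned largely on a single cell. Pericyte Cxcl1 was 348 and 195 CPM, but 89 of the 168 Gel100 UMIs lay in 1 cell, and without the highest cell of each library the levels were 189 and 168 CPM. Endothelial Cxcl2 was 94.5 and 274 CPM, and 252 of the 360 Gel50_CS50 UMIs lay in 1 cell. Without the highest cells it was 84.5 and 85.3 CPM. Endothelial Cxcl1 was 73.1 and 38.1 CPM, from 41 and 50 UMIs, and stayed lower in Gel50_CS50 without the highest cells (46.4 and 26.8 CPM). Pericyte Cxcl2 was 172 and 214 CPM with all cells and 71.8 and 106 CPM without the highest ones (log2 0.32 and 0.57). In the endothelial cells the 14 stromal markers summed to 144 and 3065 CPM, with Col1a1 at 8.91 and 794 CPM, and in pericytes to 6910 and 16770 CPM. The part of this stromal RNA in the ratios was not tested. The endothelial cells also differed in depth, with medians of 2015.5 and 18622 UMIs.

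Cxcl3 was the least abundant of the 3 ligands measured in myeloid cells and had the widest difference between libraries in macrophages. It stood at 23.0 CPM in Gel100 (21.8 to 24.2) and 95.2 CPM in Gel50_CS50 (93.0 to 97.4), a ratio of 4.15-fold (log2 2.05, 1.97 to 2.13). In neutrophils it was 85.1 and 182 CPM, a ratio of 2.14-fold (log2 1.10, 0.90 to 1.31). Neutrophils had the highest level in both libraries, 3.71-fold and 1.92-fold above macrophages. Stromal cells had 11.6 and 13.8 CPM, below the limit for a measured gene.

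Few macrophages carried Cxcl3. At 3000 UMIs per cell it was found in 2.36% and 5.80% of macrophages (4.46% and 11.9% unthinned) and in 10.5% and 14.2% of neutrophils (10.4% and 16.9% unthinned). T or NK cells had 0.23% and 0.84% (0.535% and 2.26% unthinned).

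The macrophage difference in Cxcl3 was seen beside a different mix of clusters and beside higher levels within 3 of the 4 clusters measured. In cluster 5, whose leading genes include Stfa3 and the arginine-metabolising enzyme Arg1, Cxcl3 was 287 CPM in Gel100 and 265 CPM in Gel50_CS50 (log2 -0.12, -0.25 to 0.03). That cluster held 2.28% of Gel100 macrophages (87 cells) and 19.5% of Gel50_CS50 macrophages (720 cells). Cluster 0, led by Gm15056, Ccl12 and Ms4a6d, had 15.04 and 6.31 CPM and held 34.5% and 5.12% of macrophages. Of the 4 macrophage clusters at a mean of 20 CPM or more, 3 were higher in Gel50_CS50 past 1.5-fold: cluster 18 (83.1 and 295 CPM), cluster 1 (22.3 and 81.7 CPM) and cluster 2 (19.2 and 49.6 CPM). Weighted to the same clusters, macrophage Cxcl3 stood at 44.3 and 61.8 CPM, a log2 ratio of 0.48 that no longer passed 1.5-fold. Without cluster 5 it was 1.48. The members were not among the genes used to form these clusters, although genes that vary with them were.

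Cxcl5 was a stromal gene. It stood at 193 CPM in Gel100 (184 to 201) and 471 CPM in Gel50_CS50 (464 to 479) in stromal cells, a ratio of 2.45-fold (log2 1.29, 1.22 to 1.36). Every other class was below 10 CPM in both libraries. Stromal cells held 93.1% and 95.3% of its UMIs. Over the whole library Cxcl5 was 19.97 and 118 CPM, 5.91-fold higher in Gel50_CS50, the largest whole-library ratio of the 5 genes. Stromal cells held 9.66% and 23.9% of all UMIs.

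A minority of stromal cells carried Cxcl5. At 3000 UMIs per cell it was found in 17.9% of them in Gel100 (12.8% to 23.9%) and 25.9% in Gel50_CS50 (22.3% to 29.6%), intervals that overlap, and in 40.3% and 49.9% unthinned. T or NK cells had 0.115% and 0.211%. The tenth of stromal cells with the most held 87.2% and 74.8% of the thinned UMIs. Both stromal clusters were higher in Gel50_CS50, cluster 12 with 250.5 and 623 CPM and cluster 17 with 27.4 and 173 CPM. In the unnamed cluster led by Opcml and Pi16, which scored highest as stromal, it was 71.8 and 71.6 CPM.

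In stromal cells Cxcl5 and Cxcl1 were often found in the same cells. Of Gel50_CS50 stromal cells with a Cxcl1 UMI at 3000 UMIs per cell, 53.8% also had Cxcl5, against 14.3% of those without. In Gel100 the values were 32.8% and 11.6%. In macrophages Cxcl2 was found in 95.5% and 96.3% of cells with Cxcl1 and in 74.0% and 73.5% of cells without. In neutrophils Cxcr2 was found in 61.4% and 64.1% of cells with Cxcl1 and in 72.6% and 69.1% of cells without. These are shares of cells of 1 library each, given as description.

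**Figure D4:**
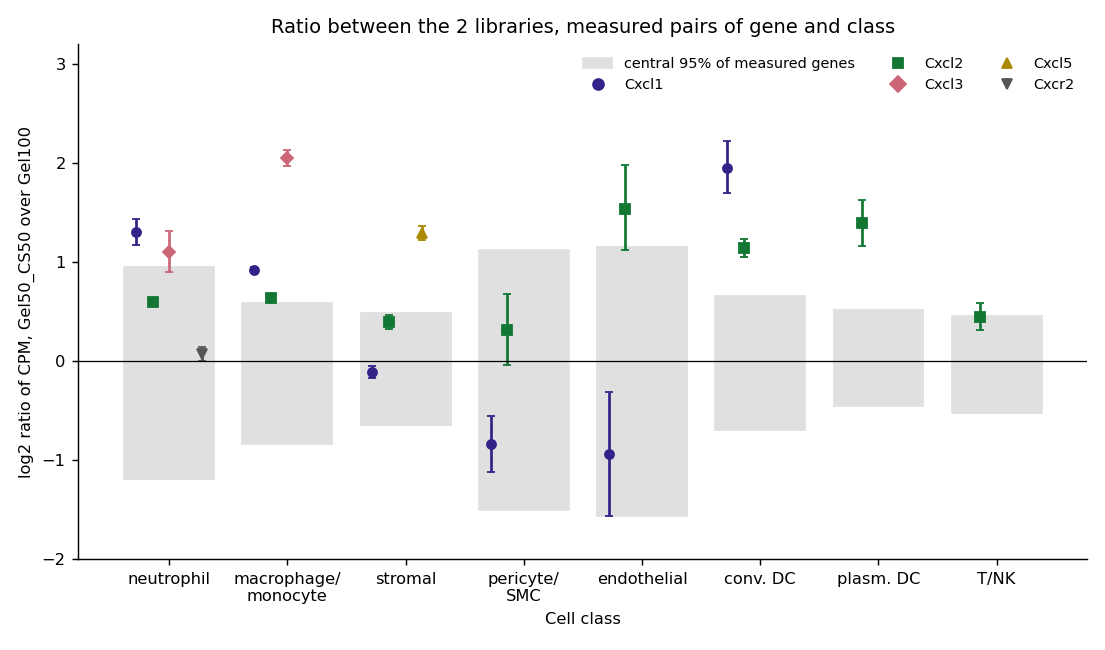
Log2 ratio of CPM, Gel50_CS50 over Gel100, for the 18 measured pairs of gene and class with 95% counting intervals; grey boxes span the central 95% of all measured genes in the class. Cxcl3 in macrophages (2.05), Cxcl1 in conventional dendritic cells (1.95) and Cxcl5 in stromal cells (1.29) lie above their boxes, and Cxcr2 in neutrophils (0.07) lies near 0.

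Each class had its own background of genes past 1.5-fold. In neutrophils 3 of 4 measured members were higher in Gel50_CS50, where 6.9% of 3959 measured genes were higher. In macrophages 3 of 3 were higher, against 2.54% of 6111 genes. In stromal cells 1 of 3 was higher, against 1.68% of 7012 genes, and in conventional dendritic cells 2 of 2, against 3.18%. The 1 measured member in plasmacytoid dendritic cells was higher, against 1.99% of genes higher and 1.13% lower. Beside that member, Cxcl2 with 33.0 and 86.6 CPM, the 17 neutrophil markers in plasmacytoid dendritic cells summed to 42.9 and 526 CPM, with 1 at 0 in each library, and S100a9 stood at 12.8 and 254 CPM. The 1 in T or NK cells was within 1.5-fold, where 1.45% of genes were higher and 1.91% lower. In endothelial cells 1 of 2 was higher and 1 lower, against 9.51% and 14.4%, and in pericytes 1 of 2 was lower, against 14.4%. Ranked among measured genes of its class, Cxcl3 in macrophages lay above 99.9% of ratios, Cxcl5 in stromal cells above 99.8%, Cxcl2 in neutrophils above 93.3% and Cxcr2 in neutrophils above 63.5%.

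Markers of other classes were present in each class and moved in both directions. In neutrophils the 28 macrophage markers summed to 5646 and 6375 CPM, with none at 0, and in macrophages the 17 neutrophil markers summed to 330 and 485 CPM, with none at 0. In stromal cells these 2 lists summed to 5265 and 5393 CPM, with 1 gene at 0 in Gel100, and to 152 and 261 CPM. In T or NK cells the neutrophil list summed to 76.2 and 175 CPM and the macrophage list to 2452 and 1651 CPM. The neutrophil list was lower in Gel50_CS50 in pericytes (311 and 109 CPM) and endothelial cells (134 and 59.4 CPM), where 5 and 3, and 7 and 6, of its genes were at 0. The part of such RNA in the ratios was not tested.

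Other chemokines went in both directions. Of 8 CXC chemokines for other receptors, 4 were measured in neutrophils, with 1 higher and 2 lower in Gel50_CS50, against 6.9% and 12.3% of all measured genes. Their median log2 ratio was -0.94 against -0.06 over all genes. Cxcl10, an interferon-induced attractant of T cells, was 5549 and 1537 CPM in neutrophils, and Cxcl9, its relative, was 47.5 and 5.92 CPM. In stromal cells Cxcl9 was 251 and 50.2 CPM and Cxcl10 was 257 and 94.0 CPM. That list had 2 of 4 measured members lower there, against 3.08% of all measured genes. Stromal Cxcl12, the ligand that retains neutrophils in marrow through CXCR4, was 147 and 252 CPM. Macrophages had 2 of 5 higher, against 2.54%, and 2 lower, against 4.53%. The higher ones were Pf4, a platelet-type chemokine, with 312 and 786 CPM and Cxcl13, an attractant of B cells, with 39.5 and 67.7 CPM, which falls outside the naming rule and was named after its values were seen. The lower ones were Cxcl9 with 53.6 and 23.8 CPM and Cxcl10 with 366 and 202 CPM.

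Of 3 further CXCR2 ligands, only Mif was measured in these 3 classes. In neutrophils Mif was 78.5 and 126 CPM, and it was within 1.5-fold in macrophages and stromal cells. Ppbp and Cxcl15 were under 3 CPM in all 3 classes. These genes were named outside the fixed rule because so few were in the list. Of 8 other attractants and growth factors for neutrophils, 5 were measured in neutrophils and 1 was higher: Ccl3, with 2523 and 4814 CPM. Over all measured neutrophil genes 6.9% were higher. In stromal cells 2 of 4 were higher, against 1.68% of all measured genes, one being complement C3 with 59.3 and 111 CPM.

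Among 17 other trafficking receptors, 14 were measured in neutrophils, with 1 higher, 2 lower and a median log2 ratio of 0.07. These shares are near those over all measured neutrophil genes, 6.9% higher and 12.3% lower. Fpr1, the receptor for bacterial formyl peptides, was 583 and 1122 CPM. Cxcr4, the marrow-homing receptor, was 306 and 131 CPM, and Cd177, a surface protein of neutrophils, was 151 and 39.8 CPM. The receptor of the ligand group thus stood between receptors that were higher and lower. In stromal cells the scavenging receptor Ackr3 was 217 and 133 CPM.

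Of 17 cytokines and receptors known to induce the ligands, 11 were measured in neutrophils, 12 in macrophages and 12 in stromal cells, with 1 higher and 0 lower in each, where 6.9%, 2.54% and 1.68% of all measured genes were higher. Il1a was the one in neutrophils (368 and 730.2 CPM) and in macrophages (72.7 and 176 CPM), and Il1r1, the receptor for interleukin-1, the one in stromal cells (135 and 235 CPM). Of 14 regulators of NF-kB, C/EBP and mRNA stability, 13 were measured in neutrophils, with 4 higher and 0 lower, against 6.9% and 12.3% of all measured genes. Their median log2 ratio was 0.40 against -0.06 over all genes. Nfkb2 was 109 and 212 CPM, Zc3h12a (Regnase-1, an RNase that degrades inflammatory mRNAs) was 167 and 313 CPM, and Zfp36l1 was 96.5 and 173 CPM. None of the 13 measured in macrophages or the 12 in stromal cells passed 1.5-fold. Of 17 genes of CXCR2 signalling, 15 were measured in neutrophils, with 1 higher and 2 lower, near the 6.9% and 12.3% over all measured genes. The lower ones were the G protein regulators Rgs2 (308 and 173 CPM) and Rgs18 (48.6 and 20.2 CPM).

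The genes whose profile over the 16 combinations of class and library was most like each member were taken from 7401 genes, with Pearson correlation of log2(CPM + 1). The 16 points share 2 libraries and their depths, and the values are descriptions. Cxcr2 was followed most closely by Mrgpra2b (r = 0.99), Mrgpra2a, Stfa2l1, S100a9 and G0s2, of which the last 3 are on the list that named neutrophils. Cxcl5 was followed by Clec3b (r = 0.97), Crabp2, Glis1, Dpt and Medag. Cxcl2 was followed by the C-type lectin receptor gene Clec4d (r = 0.98), Igsf6, Clec4e, Gm28981 and Msrb1. Cxcl3 was most like Cxcl2 (r = 0.89), then Gpr84, Tarm1, Siglece and Smpdl3b, and Cxcl1 was most like Ggh (r = 0.91), then Eif4ebp1, Cd302, Thbs1 and Zfp703. Between the members themselves r was 0.65 for Cxcl1 and Cxcl2, 0.74 for Cxcl2 and Cxcr2, and 0.02 for Cxcl5 and Cxcr2.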

How the data were processed

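Per the file headers, the deposited matrices of whole-number UMI counts come from Cell Ranger 6.0.2. The build is mm10 per the submitters' processing notes. How reads shared between genes were counted was not stated. Of the 50-base words in the genes' exons, 0% of Cxcl1 and up to 5.84% (Cxcl2) also occur in other genes.

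Barcodes needed 200 genes, 500 UMIs and a mitochondrial share under 20% (65 and 117 removed), and Scrublet in scanpy 1.11.5 (expected rate 0.06) removed 210 and 192 doublets, 2.70% and 2.60%. Cells were clustered with leidenalg 0.10.2 (3000 variable genes without the 5 members and mitochondrial genes, 30 components, 15 neighbours, resolution 1.0). Clusters took the class of their highest marker score, so that a neutrophil here is a neutrophil-like cell, and so on. Limits set after the data were seen were a score of 1.5, a lead of 0.5, a median of 1000 UMIs, and no name for clusters that mixed markers of several classes or were led by another class's markers. Mast cells were left out for having under 20 cells in a library.

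CPM are summed counts per 1000000 UMIs with exact Poisson intervals; ratios have exact conditional binomial intervals, shares exact Clopper-Pearson intervals. UMI counts of 0 allow up to 3. The functions were tested on counts simulated from the Poisson model that the intervals assume. For macrophages, 95.1% of intervals over 6111 genes held the true ratio. This checks the code and cannot show how the intervals do where UMIs gather in few cells. In simulated endothelial cells 8.80% of unchanged genes passed 1.5-fold, against 0% in macrophages. All 5 members are described. Other genes were named from lists where the interval lay wholly past 1.5-fold at a mean of at least 20 CPM, at most 3 per list and class, plus the 5 genes most like each member among those reaching 50 CPM. The members and lists were chosen with earlier results of these data known. Other tools were scipy 1.17.1, numpy 2.4.6, pandas 2.3.3, matplotlib 3.10.9 and Python 3.11.15.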

Additional observations from a re-analysis of the deposited data

Results flagged for a closer look

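Cxcl1 went in opposite directions in different classes between the 2 libraries: its log2 ratio was -0.111 in stromal cells, -0.838 in pericytes or smooth muscle cells and -0.94 in endothelial cells, while it was 1.30 in neutrophils, 0.92 in macrophages and 1.95 in conventional dendritic cells. Each interval lay on 1 side of 0, for counting error only, and the difference between classes was not tested. Without the cell highest in Cxcl1 in each library the pericyte value was -0.17, and with cells weighted equally it was 0.0863. The stromal value was within 1.5-fold and was 0.103 with cells thinned and 0.0258 with the same cluster weights. The endothelial value came from 41 and 50 UMIs and was 0.514 gated by cell. The opposite direction in these 3 classes is therefore not settled.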

How the results depend on the processing

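Of 245 recomputed log2 ratios of the 18 measured pairs, 234 kept their direction and 220 their side of 1.5-fold. Cxcl1 in macrophages was 0.705 when each cell was gated by its own markers, 0.889 at resolution 2.0, 0.954 with doublets kept, 0.848 with cells thinned, 0.887 with cells weighted equally and 0.607 with the same cluster weights. Cxcl2 in neutrophils, in which 7 of 14 settings passed 1.5-fold, was 0.555 with 50 components, 0.134 with each library clustered alone, 0.547 with doublets kept, 0.613 in cells of at least 3000 UMIs, 0.509 thinned, 0.5 with cells weighted equally, 0.654 with median-ratio scaling and 0.246 with the same cluster weights. Cxcl3 in macrophages was 1.59 gated by cell, 1.94 clustered alone, 1.79 thinned, 0.481 with the same cluster weights and 1.48 without the cluster highest in Cxcl3. Cxcl5 in stromal cells was 1.03 thinned and 0.779 with cells weighted equally. Cxcr2 in neutrophils was -0.0177 gated by cell, -0.412 clustered alone and 0.323 with the same cluster weights. Clustered alone, the Gel50_CS50 neutrophils took in 164 of 1578 cells that otherwise had no class. Counts of pairs at 20 CPM or more in both libraries, and of higher pairs, stayed within 1.5 times in every setting that gave them. The first count is stricter than the mean of 20 CPM that made a pair measured. Lower pairs fell from 2 to 1 gated by cell and with 50 components. Alternatives chosen after seeing the data gave 0.557 for Cxcl2 in neutrophils with mixed clusters kept named, and for Cxcl5 in stromal cells 1.41 without its highest cells and 1.43 with the same cluster weights. Directions reversed for Cxcl1 in endothelial cells gated by cell (0.514), for Cxcl1 in pericytes with cells weighted equally (0.0863), and for Cxcl2 in endothelial cells gated by cell (-0.00161), thinned (-0.184) and weighted equally (-0.126). The sign also changed for Cxcl2 in pericytes weighted equally (-0.665) and in T or NK cells clustered alone (-0.2), neither past 1.5-fold before, and for stromal Cxcl1 thinned (0.103) and with the same cluster weights (0.0258). The cause of these shifts was not tested. Median-ratio scaling moved no class by over 0.1. Without a limit on CPM, 30% of genes were higher and 24% lower past 1.5-fold in neutrophils, against 6.9% and 12.3%, and 20.3% and 15.3% in macrophages, against 2.54% and 4.53%, and at 100 CPM or more 6.93% were lower. Of the 25 genes most like a member, 13 were found again with libraries averaged first. No paired analysis was possible because each scaffold has 1 library. Endothelial and pericyte values come from under 100 cells in each library.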
